A study of Homo sapiens with 18 samples.

Results

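Ribosome footprints of a HEK293 line without the ubiquitin-like protein UFM1 were compared between the membrane and the cytosol. HEK293 is an established human embryonic kidney line. The 4 libraries were chosen by their labels, UFM1-KO membrane a and b and UFM1-KO cytosol a and b, out of 18 libraries in the series. The UFM1-KO line is clonal and was made with Cas9 and a guide against UFM1. The lines used beside it were unedited HEK293 (WT) and a clonal line without the protease UFSP2 (UFSP2-KO), each with 4 footprint libraries of the same kind. Each knockout was represented by 1 clone, so an effect of the knockout and a trait of the clone cannot be told apart. All lines were grown in the same medium, and the labels give no further treatment. The cytosolic fraction was what digitonin released, and the membrane fraction was what Triton then released from the remaining pellet, per the labels' protocols. Both fractions were digested with RNase I to leave the stretches of mRNA held by ribosomes.

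Ribosomes that make secreted and membrane proteins dock on the endoplasmic reticulum (ER), where the growing chain passes into or across the membrane through the Sec61 channel. Digitonin opens the cholesterol-rich plasma membrane and spares most ER, so ribosomes bound to ER stay in the pellet. UFM1 is joined to target proteins by its own set of enzymes and removed by proteases such as UFSP2. Its main known target is RPL26, which sits on the large ribosomal subunit near the exit of the nascent chain, and this modification takes place at the ER. The comparison of fractions addresses which transcripts were translated at the membrane in cells that cannot attach UFM1.

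Counts were given per Ensembl transcript, and transcripts with identical counts in all 12 footprint libraries of the series were merged, since isoforms that share all their reads cannot be told apart. The 26679 entries included 21223 with a count and gave 14377 distinct features, of which 11065 passed the filter on low counts. Isoforms that share only part of their reads stayed separate, so a number of features is not a number of genes. The labels do not explain the length column, which is taken here as coding length in codons. No table at hand paired the transcripts with gene names or proteins, so transcripts are given by Ensembl ID, and neither the loss of UFM1 nor markers of HEK293 or of the fractions were checked in the counts. After merging, membrane libraries a and b held 5965113 and 1931518 counts, and cytosol libraries a and b held 1271795 and 1755206. Every library had a count in 12020 to 13765 of the features. Levels are in CPM, each library's counts scaled to 1e6 with edgeR's TMM factors. The log2 difference between libraries a and b had an SD of 0.36 for the membrane and 0.58 for the cytosol, over the 7815 features whose mean reached 10 CPM. The 2 libraries of each fraction differed beyond sampling noise (chi-square per degree of freedom 4.37 and 5.21). The labels do not say whether they came from separate cultures. The p-values measure only the spread between libraries a and b, estimated over the groups of all 12 footprint libraries, and this spread may be technical.

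With TMM scaling, UFM1-KO features fell into a large group with log2 membrane-to-cytosol ratios near 0 and a second, less numerous one with high ratios. Levels in CPM are shares of each library, and the scaling affects where the ratios centre. The ratios thus do not give the part of a transcript's ribosomes that was in either fraction. Of these 7815 features, 4482 had a log2 membrane-to-cytosol ratio within 0.5 of 0, and only 105 had a ratio between 2 and 3. The number rose again to 272 between 4 and 5, 346 between 5 and 6 and 355 between 6 and 7. The low side had no such second group: 177 features lay between -3 and -1 and 10 at -3 or below. At a Benjamini-Hochberg adjusted p under 0.05 in edgeR's quasi-likelihood test, 3195 features differed between the fractions (28.9% of those tested). Of these, 2545 were higher at the membrane (23%) and 650 were lower (5.87%). With library size only in place of TMM, the median log2 ratio of all features was -0.27 in place of 0.02, and 55.2% of calls were higher in place of 79.7%. Without membrane library b, the number of features called lower was 285.

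**Figure D1:**
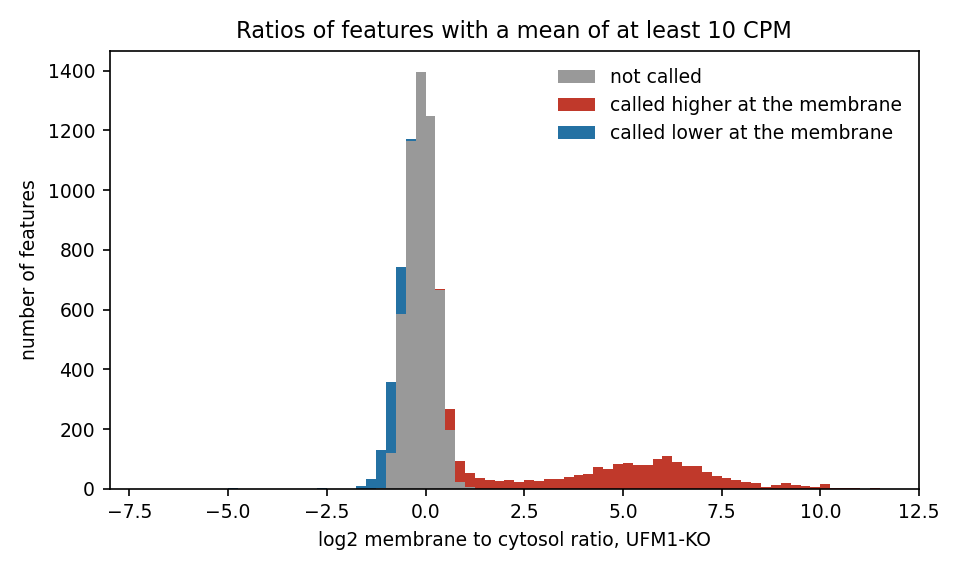
Number of features by log2 membrane-to-cytosol ratio in UFM1-KO (x axis, intervals of 0.25) for the 7815 features whose mean reached 10 CPM, coloured by edgeR call at an adjusted p under 0.05. The narrow peak near 0 holds 4482 features within 0.5 of equal levels, and the separate broad hump on the right is called throughout.

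The group at the membrane is called the membrane class below: called higher at the membrane by edgeR and enriched there over 2-fold. It held 2402 of 11065 features (21.7%). Its median log2 ratio was 5.29, with quartiles of 3.8 and 6.73, or 39.0-fold, and the median was 6.08 without cytosol library a. In 2399 of the 2402 both membrane libraries were above both cytosol libraries, which was so for 33.8% of all features. The class was chosen on these same libraries, so this follows largely from the choice. Its features had a median of 37.9 and 38.1 CPM in membrane libraries a and b and 1.37 and 1.01 CPM in cytosol libraries a and b. The remaining features outside both this class and the class over 2-fold lower had 18.3 and 18.2 CPM at the membrane against 20.6 and 20.7 CPM in the cytosol. Per codon of coding length, the class had a median of 0.0758 CPM at the membrane, and features outside the membrane class of any line had 0.0409 CPM. In the cytosol the same medians were 0.00249 and 0.0472 CPM per codon.

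**Figure D2:**
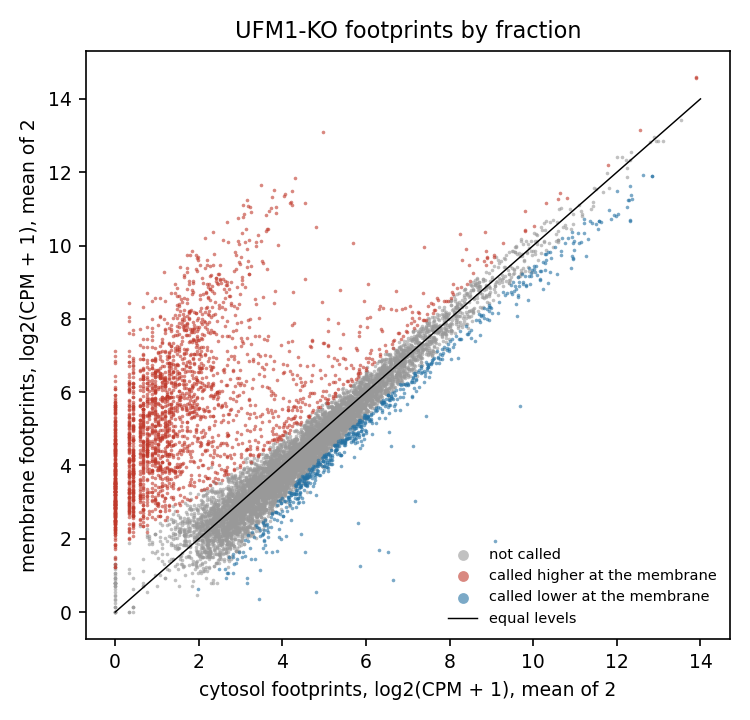
Mean footprint level of each feature in the membrane fraction (y axis) against the cytosol (x axis), both as log2(CPM + 1) over 2 libraries, for all 11065 features tested. Features called higher at the membrane form a cloud above the line of equal levels at low cytosol levels. Most features called lower lie close under the line, while 33 of them had ratios over 4-fold lower.

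In the cytosol the class rested on few counts. In 324 of the 2402 features both cytosol libraries had 0 counts, and in 749 more they held 1 to 3 counts together. With the features at 0 set to a floor of 3 counts over both cytosol libraries, the median enrichment was 26.3-fold in place of 39.0-fold. Summed over the class, membrane footprints were 24.3-fold above cytosol footprints. The cytosol counts were unevenly spread: 58 features with over 100 cytosol counts held 48.7% of all cytosol counts of the class and 6.58% of its membrane counts, and their median log2 ratio was 1.57. The membrane counts were spread over more features. It took 134 features to reach 50% of them, and the 10 highest held 11.4% in library a and 11.6% in library b.

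As a description, the class was cut at 8-fold into 2 parts. A lower part of 384 features was enriched 2 to 8-fold, and 2018 features were enriched 8-fold or more. The lower part held 2.58% and 2.62% of the counts of membrane libraries a and b, and 0.997% and 0.904% of those of cytosol libraries a and b. The upper part held 25% and 25.5% at the membrane, and 0.540% and 0.346% in the cytosol. The lower part, with the fewer features, had the larger share of cytosol footprints in both libraries, which follows largely from a cut on the ratio. Coding lengths in the lower part were more varied, with quartiles of 252 and 999 codons around a median of 522, against 303 and 738 around 458.

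The 2 features that led the naming rule at the membrane had no cytosol count at all. ENST00000359741.8, with a coding length of 472 codons, had 146 and 130 CPM in membrane libraries a and b, from 791 and 243 counts, and 0 counts in both cytosol libraries. Against the floor of 3 counts over both cytosol libraries it was at least 163-fold higher at the membrane (edgeR adjusted p = 4.29e-13). Its mRNA stood at 41.6 and 45.9 CPM in the 2 UFM1-KO mRNA libraries. ENST00000284878.10, of 345 codons, had 112 and 140 CPM at the membrane, from 604 and 261 counts, and again 0 cytosol counts. It was at least 136-fold higher at the membrane (edgeR adjusted p = 1.75e-13), with 39.5 and 31.8 CPM of mRNA. Neither transcript had over 4 counts in any cytosol library of WT or UFSP2-KO either, so their bounds are set by the cytosol depth.

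The cytosol-biased side was smaller and shallower. Features called lower at the membrane by edgeR and depleted there over 2-fold, the cytosol class, numbered 253 (2.29%), with a median of 2.31-fold. Its size moved with the method, to 872 with library size only and 132 with DESeq2. In 247 of them both membrane libraries were below both cytosol libraries, which was so for 25.3% of all features. This class too was chosen on these same libraries, so this follows largely from the choice. Of the counts, the class held 11% and 9.40% in cytosol libraries a and b and 3.8% and 3.22% in membrane libraries a and b. Its coding sequences were short, with a median of 216 codons against 455 over all features tested. Most of the class, 220 features, lay between 2 and 4-fold, and 33 were over 4-fold lower.

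The 33 features were set beside the other 220 as a description. Their median coding length was 412 codons against 190.5, and their mRNA level was low, with a median of 4.62 CPM against 41.5 CPM (41.7 CPM for features outside the membrane classes). Of the 33, 4 had 0 counts in both UFM1-KO mRNA libraries, while none of the 218 matched features between 2 and 4-fold did. In the cytosol 27 of the 33 were higher in library a than in library b, and the median absolute log2 difference between the 2 libraries was 1.34, against 0.29 in the 220 and 0.32 outside the membrane classes. Their medians were 17.1 and 8.57 CPM in cytosol libraries a and b. The part of cytosol library a in their ratios was not tested. The whole cytosol class held 248 features without that library.

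The lowest ratio that met the naming rule was that of ENST00000336600.5, of 222 codons. Its footprints were 817 and 273 CPM in cytosol libraries a and b and 5.17 and 0.536 CPM in membrane libraries a and b (log2 -7.15, SE 0.94, edgeR adjusted p = 3.29e-07). The log2 ratio was -9.86 without membrane library a and -6.15 without cytosol library a, and both were called. Leaving out cytosol library b gave -7.77. The naming rule took only features whose fractions do not overlap, so the order of its 4 values was set by the rule. Its cytosol libraries were far apart. It had 0 counts in all 6 mRNA libraries of the series. In WT its cytosol libraries a and b had 405 and 16.3 CPM, and in UFSP2-KO 23.1 and 35.5 CPM, with library b the higher. ENST00000344586.8, of 344 codons, had 152 and 45.9 CPM in the cytosol and 1.11 and 0.536 CPM at the membrane (log2 -6.61, SE 0.83, edgeR adjusted p = 1.48e-07). It was -5.53 without cytosol library a, -7.37 without membrane library a and -7.29 without cytosol library b, and called in each case. Its membrane values rest on 6 counts and 1 count, and its UFM1-KO mRNA on 0.867 and 0.833 CPM.

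The densest footprints of both fractions were on features outside the membrane class. None of the 5 features with the most CPM per codon at the membrane was in the membrane class, and their log2 ratios ran from -0.96 to 0.69. The 2 densest of them were called higher at the membrane by edgeR, at a log2 ratio of 0.69, short of the 2-fold limit of the class. In the cytosol the 5 densest features were 83 to 116 codons long, with log2 ratios of -1.63 to -0.95, and 3 of them were in the cytosol class. In both lists features 1 and 2, and also 3 and 4, had the same length and nearly the same density. Each pair may share most reads, so 5 features need not be 5 separate sequences. The pair of 116 codons was in both lists.

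The share of features in the membrane class, and the ratio of those outside it, varied with coding length. The class took in 12.3% of features of up to 100 codons, 17.2% of those over 100 and up to 200, 21.6% to 23.8% in the intervals between 200 and 1600 and 27.2% of those over 1600 codons. Among the 8374 features in the membrane class of none of the 3 lines, the median log2 ratio was -0.40 up to 100 codons and -0.48 from there to 200. It was -0.29 between 200 and 400, -0.09 between 400 and 800, 0.04 between 800 and 1600 and 0.17 over 1600 codons. By edgeR, 23.8% of the features between 100 and 200 codons were called lower and 0.182% higher. Over 1600 codons 0.909% were called lower and 3.64% higher, and of all 8374 features 649 were called lower and 93 higher. Features called over 2-fold higher in any line were left out of this set, and those over 2-fold lower were kept. The excess of lower over higher calls thus follows in part from the choice. Across these features log2 length and log2 ratio correlated at Pearson's r = 0.26 and Spearman's rho = 0.35, which describes features from the same 4 libraries and is no replicate test.

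**Figure D3:**
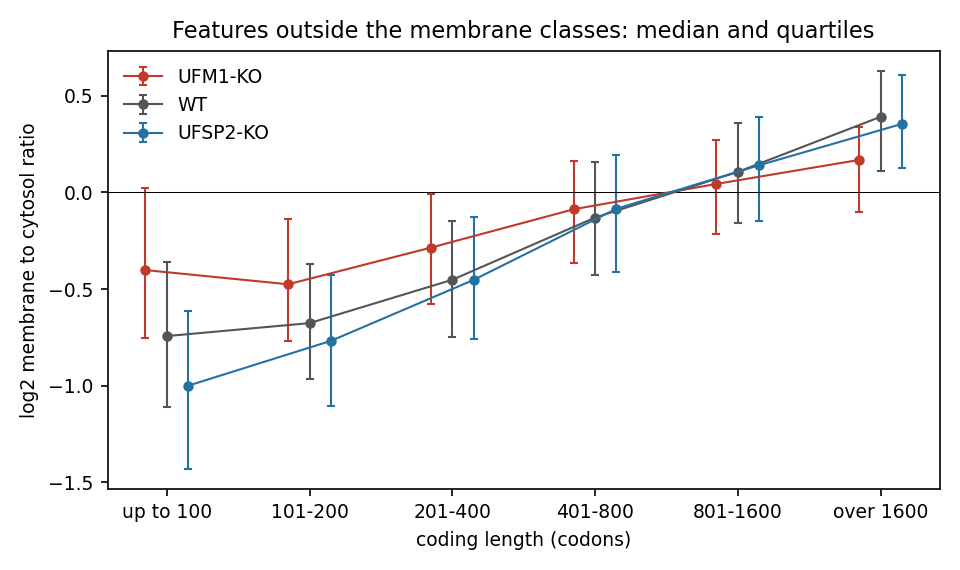
Log2 membrane-to-cytosol ratio (y axis) by coding length in codons (x axis) for the 8374 features in the membrane class of none of the 3 lines, as the median (points) and quartiles (bars) in each line. Short features lie below 0 in all lines, and UFM1-KO runs flatter, from -0.40 at up to 100 codons to 0.17 over 1600.

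The same pattern appeared in each UFM1-KO library. Of the counts outside the membrane classes, features of up to 200 codons held 25.7% and 23.7% in membrane libraries a and b and 36.9% and 34.4% in cytosol libraries a and b. In the UFM1-KO mRNA libraries a and b they held 23.2% and 25.8%. The cytosol libraries were above both the membrane and the mRNA libraries, which overlapped each other. Features of over 800 codons held 14.1% and 14.9% at the membrane, 11% and 11.2% in the cytosol and 20.6% and 18.4% in mRNA, with no overlap between the 3 kinds of library. For both length groups the exact permutation p, two-sided, was 0.333 for membrane against cytosol, the smallest that 2 libraries against 2 can give.

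The length difference was also taken in each line. The median log2 ratio of features up to 200 codons less that of features over 800 was -0.53 in UFM1-KO, -0.85 in WT and -1.0 in UFSP2-KO, over the same 1464 short and 1716 long features. The same difference was computed within each library, from the medians of log2(CPM + 1). It was -0.08 and -0.24 in UFM1-KO membrane libraries a and b, -0.33 and -0.18 in those of WT and -0.56 and -0.63 in those of UFSP2-KO. At the membrane UFM1-KO thus overlapped WT and lay above UFSP2-KO. In the cytosol it was 0.19 and 0.28 in UFM1-KO, 0.28 and 0.59 in WT and 0.21 and 0.36 in UFSP2-KO, so that UFM1-KO overlapped UFSP2-KO, and its higher library was just under the lower WT library. The exact permutation p, two-sided, was 0.667 against WT and 0.333 against UFSP2-KO at the membrane, and 0.333 and 0.667 in the cytosol. The median per-feature change of the ratio between UFM1-KO and WT was 0.33 higher in short than in long features, against 0.21 without UFM1-KO membrane library a and 0.11 without WT cytosol library b.

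The membrane class was next set by the other lines, so that its members were not chosen with UFM1-KO ratios. In WT edgeR called 37.5% of all features, 25.3% higher and 12.2% lower at the membrane, and 22.9% fell in its membrane class. In UFSP2-KO it called 36.9%, 24.8% higher and 12.2% lower, and 22.6% fell in that class. The 2387 features in the class of both WT and UFSP2-KO had a median log2 ratio of 5.26 in UFM1-KO, or 5.93 without cytosol library a. Of these, edgeR called 2295 (96.1%) higher at the membrane in UFM1-KO, against 23% of all features tested, and 2269 were also over 2-fold. The 118 that did not reach the class in UFM1-KO had a median of 5.80 CPM over the 4 libraries against 21.6 CPM for the others. These means include the membrane libraries, so less membrane signal lowers them. The median log2 ratio of the 118 was 0.96, and their median SE was 0.52 against 0.50 for the others. In the other direction, 41 features were in the class of UFM1-KO and of no other line. Their median log2 ratio was 1.34 in UFM1-KO, 0.75 in WT and 0.66 in UFSP2-KO. None was called as different from WT, but only 1 of all 11065 features was (0.00904%), so this tells little about the 41. The upper part of the UFM1-KO class was nearly all shared, with 2010 of 2018 features (99.6%) also in the WT class and 1980 (98.1%) in the UFSP2-KO class. Of the lower part, 332 of 384 (86.5%) and 308 (80.2%) were shared.

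The cytosol class was treated alike. It held 4.94% of all features in WT and 6.32% in UFSP2-KO. The 255 features in the cytosol class of both WT and UFSP2-KO had a median log2 ratio of -0.82 in UFM1-KO, and 247 of them were below 0. By edgeR 146 (57.3%) were called lower in UFM1-KO, against 5.87% of all features, and 78 were over 2-fold lower. Of the UFM1-KO cytosol class, 115 were also in that of WT, which is 45.5% of the 253 in UFM1-KO and 21.0% of the 547 in WT. With UFSP2-KO 105 were shared, 41.5% of the 253 and 15% of the 699 in UFSP2-KO.

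Shares of each library were then taken for the class set by WT and UFSP2-KO. It held 27.7% and 28.3% of the counts of UFM1-KO membrane libraries a and b (28.0% ± 0.41, SD, n = 2) and 1.78% and 1.49% of those of the cytosol libraries (1.64% ± 0.21, SD, n = 2). In WT, whose own libraries set this class, it held 26.1% and 25.4% at the membrane and 1.53% and 1.11% in the cytosol. Both UFM1-KO membrane libraries were above those of WT and below those of UFSP2-KO, at 29.2% and 30.4%, while cytosol libraries of the lines overlapped. The exact permutation p, two-sided, was 0.333 for membrane against cytosol of UFM1-KO and for UFM1-KO against WT at the membrane, the smallest possible with 2 against 2, and 0.667 against WT in the cytosol. The widest exact 95% binomial interval reached 0.0758 percentage points to either side, for counting error only.

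**Figure D4:**
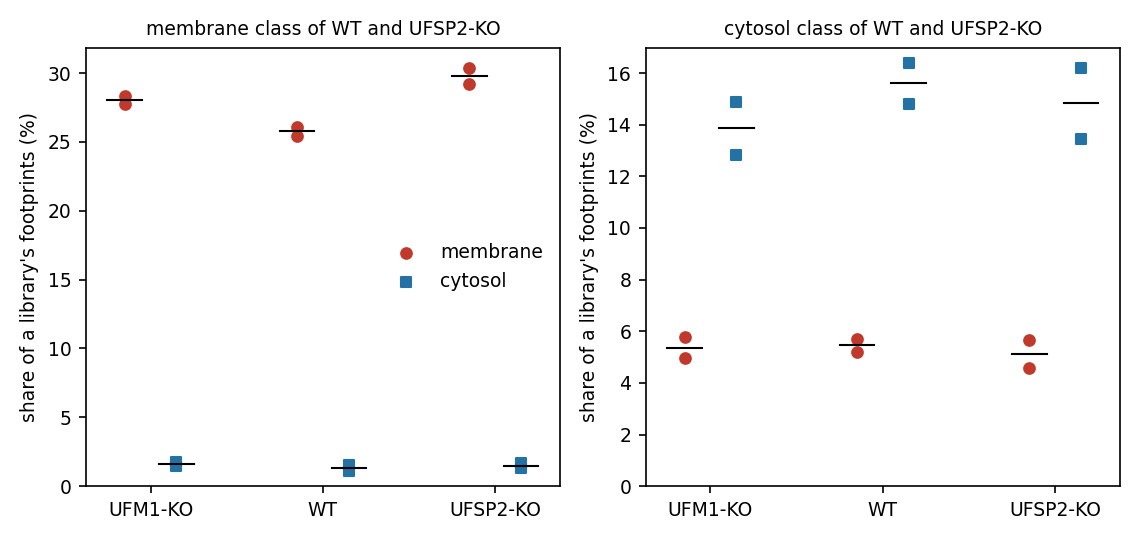
Share of a library's footprints (y axis, %) held by the membrane class (left) and the cytosol class (right) that WT and UFSP2-KO have in common, by line (x axis). Each point is 1 library and each line the mean of 2. In UFM1-KO the membrane class takes 27.7% and 28.3% at the membrane against 1.78% and 1.49% in the cytosol.

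Whole-cell mRNA of the same line, from total RNA after removal of ribosomal RNA, gave a measure that the fractions did not share. Of the 11065 features, 10899 were matched to an mRNA entry by ID without version and by length. Over the matched features, the class set by WT and UFSP2-KO held 13.8% and 13.3% of the counts of UFM1-KO mRNA libraries a and b, and 26.8% and 27.6% of those of the membrane libraries. All libraries of the 3 kinds were apart: the class took the largest share at the membrane, a smaller one in mRNA and the smallest in the cytosol, at 1.79% and 1.5%. Per feature, log2(CPM + 1) of mRNA was taken from that of footprints, for features with a mean mRNA level of at least 1 CPM. The median was 0.52 and 0.62 in membrane libraries a and b for 2295 class features, chosen by mRNA level and not by calls. For the same features it was -3.31 and -3.61 in cytosol libraries a and b. Cytosol levels of the UFM1-KO class were near the added 1 (medians 1.37 and 1.01 CPM), which in part sets these cytosol values. For 8192 features outside the membrane classes the median was -1.02 and -0.95 at the membrane and -0.58 and -0.57 in the cytosol. CPM are shares of a library, so these values do not give the number of ribosomes in each fraction.

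The ratio of UFM1-KO was tested against that of the other lines feature by feature. As a description, features were first grouped by their WT ratio. Where the WT log2 ratio was 5 to 7 (911 features, WT median 5.98), the UFM1-KO median was 5.72 and the UFSP2-KO median 5.80. Over 7 (575 features, WT median 7.74) they were 6.79 and 6.70. At WT ratios of -1 or less (721 features, WT median -1.21) the median was -0.69 in UFM1-KO against -1.01 in UFSP2-KO, and 505 of the 721 had a higher ratio in UFM1-KO than in UFSP2-KO. The intervals were set on WT values, so here the knockouts can be set beside each other and not beside WT.

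By edgeR, 1 of 11065 features had a ratio in UFM1-KO different from WT, and it was higher (0.00904%). At an unadjusted p under 0.05 there were 539 (4.87%), about the share expected with no difference. Against UFSP2-KO 4 differed (0.0362%), 3 higher (0.0271%) and 1 lower (0.00904%), with 742 (6.71%) at an unadjusted p under 0.05. The direction of so few calls was not stable. Against WT most calls were lower under 5 alternatives: 9.09% of 11 were higher without UFM1-KO cytosol library b, 14.3% of 7 with no filter, 20% of 5 with the replicate block or without WT cytosol library a, and 25% of 4 with library size only. Against UFSP2-KO 23.1% of 13 were higher without UFM1-KO cytosol library b. The median SE of the change was 0.49 against WT and 0.51 against UFSP2-KO on the log2 scale.

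ENST00000369886.6, of 182 codons, was called against both. In UFM1-KO it had 16.4 and 1.07 CPM in membrane libraries a and b and 28.1 and 18.2 CPM in the cytosol, so its membrane libraries lay far apart, at 89 and 2 counts. Its ratio was higher than in WT by a log2 of 5.39 (SE 0.81, edgeR adjusted p = 0.00546) and higher than in UFSP2-KO by 4.08 (SE 0.75, edgeR adjusted p = 0.0265). Both calls ended without UFM1-KO membrane library a, with log2 changes of 2.07 and 0.77. The call against WT also ended without WT membrane library b (4.85) and with DESeq2 (4.88). The call against UFSP2-KO also ended without UFSP2-KO membrane library b (3.16), with DESeq2 (3.63) and with RLE or library size scaling. Its mRNA was 3.01 and 3.44 CPM in UFM1-KO and 2.15 and 3.46 CPM in WT. Its WT membrane libraries a and b held only 3 and 5 counts, and those of UFSP2-KO 12 and 3. In the cytosol it had 62.0 and 85.0 CPM in WT and 146 and 107 CPM in UFSP2-KO, all above both UFM1-KO cytosol libraries.

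ENST00000301244.10, of 232 codons, had a log2 ratio of 7.96 in UFM1-KO (SE 0.37) and 2.24 in UFSP2-KO (SE 0.50), a difference of 5.72 (SE 0.81, edgeR adjusted p = 0.00198). Its UFM1-KO membrane libraries had 1870 and 1668 CPM, and the cytosol libraries 9.60 and 5.04 CPM from 14 and 10 counts. In UFSP2-KO the 4 values were 15.9 and 13.1 CPM, then 7.10 and 1.47 CPM. They rest on only 28 and 33 counts at the membrane and 8 and 5 counts in the cytosol. In WT the log2 ratio was 7.44, from 816 and 780 CPM at the membrane, so UFSP2-KO had the lowest of the 3 ratios. WT mRNA was 137 and 134 CPM. The mRNA stood at 306 and 442 CPM in UFM1-KO and 6.53 and 7.79 CPM in UFSP2-KO. ENST00000366923.6, of 1492 codons, was the feature with the lower ratio. Its UFM1-KO membrane libraries had 351 and 383 CPM and those of UFSP2-KO 400 and 446 CPM. In cytosol libraries the levels were 232 and 291 CPM for UFM1-KO and 66.5 and 94.3 CPM for UFSP2-KO. The log2 ratio was 0.48 for UFM1-KO against 2.36 for UFSP2-KO, a difference of -1.88 (SE 0.31, edgeR adjusted p = 0.0106). The lines did not overlap in either fraction: UFM1-KO was lower at the membrane and higher in the cytosol. Its log2 ratio in WT was 0.85. Its mRNA was 423 and 341 CPM in UFM1-KO and 240 and 280 CPM in UFSP2-KO. All 4 calls against UFSP2-KO ended without UFSP2-KO cytosol library a, and all but that of ENST00000301244.10 ended without UFM1-KO membrane library a or without UFSP2-KO membrane library b. The log2 differences without UFSP2-KO cytosol library a were 4.72 for ENST00000301244.10, 3.86 for ENST00000369886.6 and -1.68 for ENST00000366923.6. For ENST00000366923.6 the difference was -1.82 without UFM1-KO membrane library a and -1.80 without UFSP2-KO membrane library b, and its call also ended without UFM1-KO membrane library b, at -1.95. The third feature with a higher ratio than in UFSP2-KO, of 603 codons, had a log2 difference of 2.27 (SE 0.38, edgeR adjusted p = 0.0106). Its UFM1-KO levels were 65.8 and 57.4 CPM for membrane libraries, then 76.1 and 40.3 CPM for cytosol libraries, while UFSP2-KO cytosol had 304 and 194 CPM. Its difference stayed between 1.93 and 2.27 in the settings that ended its call, which included leaving out UFSP2-KO membrane library a.

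**Figure D5:**
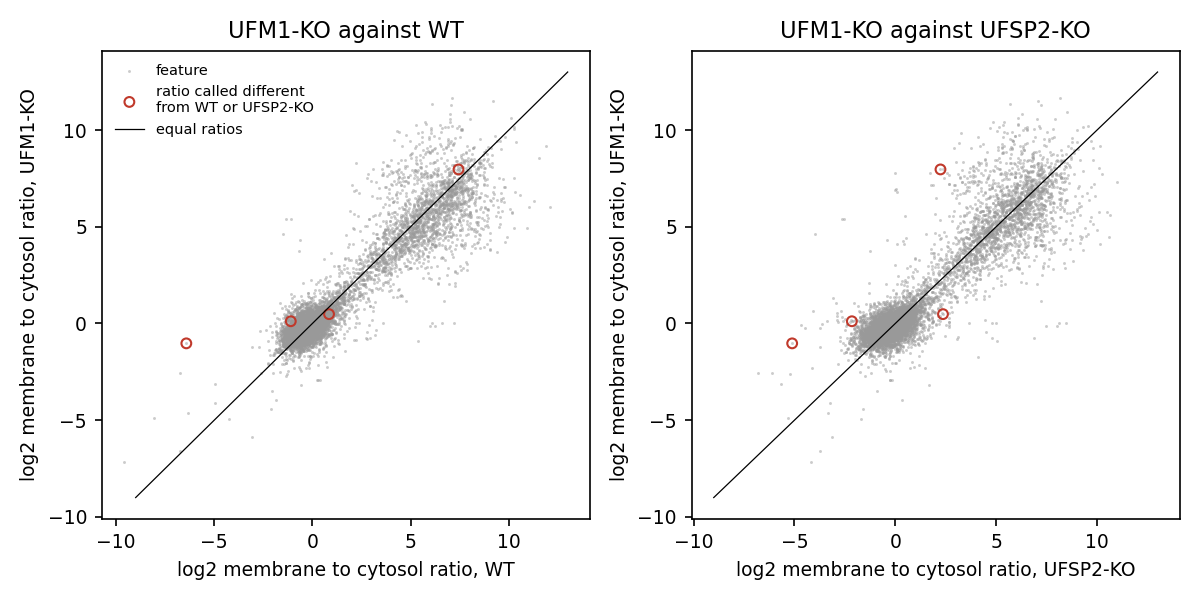
Log2 membrane-to-cytosol ratio of each feature in UFM1-KO (y axis) against WT (left) and UFSP2-KO (right), with the line of equal ratios. Most of the 11065 features follow the line, and the 4 circled features had a ratio called different from WT or UFSP2-KO by edgeR.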

How the data were processed

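Footprints of 12 libraries and mRNA of 6 were deposited as raw counts per versioned Ensembl transcript with a length column, taken here as codons of coding sequence less a constant. Per the submitters' processing notes the authors used TopHat2 2.1.1 and GRCh38. For the counting program and annotation, the sources used here give nothing. Tests used edgeR 4.0.16 under R 4.3.3 (quasi-likelihood, TMM, filterByExpr with a minimum count of 10), in 1 model over the 12 footprint libraries with 1 coefficient per group. Calls have a Benjamini-Hochberg adjusted p under 0.05, two-sided, and SE come from the F statistic. A feature is named by its longest entry. Alternatives were RLE or library size scaling, no filter, DESeq2 1.42.0, a model of only the groups compared, a block on the letters and leaving out each library. The code was tested on simulated data. Named features were the 2 highest and 2 lowest ratios among called features whose mean reached 10 CPM and whose fractions do not overlap, and those called between lines, of which 1 is given without its ID. Gene lists, named genes and protein features had been planned and were not analysed here, since no table paired transcripts with genes. Members and classes were chosen with earlier results of these data known.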

Additional observations from a re-analysis of the deposited data

Results flagged for a closer look

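A feature is given here where edgeR called its membrane-to-cytosol ratio as different between UFM1-KO and another line. Against WT this was ENST00000369886.6, with a log2 change of 5.39. Its UFM1-KO membrane libraries held 89 and 2 counts, and the call ended without the first. Against UFSP2-KO these were ENST00000301244.10 (5.72), ENST00000369886.6 (4.08), a feature of 603 codons (2.27) and ENST00000366923.6 (-1.88). In UFSP2-KO, ENST00000301244.10 had only 28 and 33 membrane counts and 8 and 5 cytosol counts. Without UFSP2-KO cytosol library a none of the 4 was called, and without UFM1-KO membrane library a or UFSP2-KO membrane library b 1 was. In these settings the change of ENST00000366923.6 was -1.82 to -1.68 and that of the feature of 603 codons 1.93 to 2.27, while that of ENST00000369886.6 was 0.77 to 3.86.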

How the results depend on the processing

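The number of features higher at the membrane and the size of the membrane class stayed within 1.5 times under the 6 other settings and without any 1 UFM1-KO library (2374 to 2500 and 2305 to 2442 without a library). The total was 2781 to 2964 without a library. Features called lower were less steady: 285 to 570 without a library, 1932 with library size only and 298 with DESeq2, against 650. The cytosol class held 184 to 370 features without a library, 872 with library size only and 132 with DESeq2, against 253. The difference of short from long features in UFM1-KO was -0.62 to -0.46 without a library. Its change from WT was 0.11 to 0.45 and from UFSP2-KO 0.38 to 0.58 without a library, and they were 0.54 and 0.85 with limits of 100 and 1600 codons, chosen after seeing the data.

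Calls of a changed ratio were few and unsteady. Against WT there was 1, and there were 0 to 11 without a library (0 without UFM1-KO membrane a or WT membrane b, 11 without UFM1-KO cytosol b, 5 without WT cytosol a), 4 with library size only, 7 with no filter, 5 with the replicate block and 0 with DESeq2 (241 at an unadjusted p under 0.05). Against UFSP2-KO there were 4, and 0 to 13 without a library (13 without UFM1-KO cytosol b), and 9 with the replicate block. The letters a and b share only a name in the labels. The a-less-b differences of the membrane and cytosol of UFM1-KO correlated at 0.16 across features, and the block gave 3500 calls in place of 3195. The class median log2 ratio was 6.08 without UFM1-KO cytosol library a, against 5.29. Shares without mitochondrially encoded transcripts, and sums over the features of a gene, were not run because genes were not identified. Low cytosol counts limit the ratios of the membrane class.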
